A study of Caenorhabditis elegans with 43 samples.

Results

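The genes of the mitochondrial respiratory chain and of the ADP/ATP carriers were followed across larval development of Caenorhabditis elegans. They were taken from a table of ribosome footprint counts by symbol, as every gene named nuo, atp, cox, ucr, cyc, ant, sdha, sdhb or sdhd followed by a hyphen and a digit. This gave 41 of the 20182 genes of the table. There were 6 complex I genes (nuo-1 to nuo-6), 4 complex II genes, 6 complex III genes with cyc-1 among them, 2 genes of cytochrome c, 7 structural genes of complex IV and 7 complex IV assembly factors. The other 9 were 5 ATP synthase genes and 4 ADP/ATP carrier genes. All 41 are nuclear genes, and of 12 listed mitochondrially encoded genes 0 had a row, so those are not analysed here. Whole worms of 4 strains were grown at 25 °C from synchronised arrested L1 larvae and collected every 2 h of development, with 1 library per strain and hour. The strains were wild type N2, lin-41(xe11), let-7(n2853) and a combined mutant with both alleles, lin-41(xe11); let-7(n2853). The allele n2853 changes the seed of the let-7 microRNA, while xe11 changes the let-7 sites of the lin-41 transcript so that they pair with the n2853 form. N2, lin-41(xe11) and the combined mutant were sampled in 1 time course (11 libraries each, 18 to 38 h) with monosomes purified by size-exclusion chromatography. The let-7(n2853) animals came from another course (10 libraries, 18 to 36 h) with sucrose gradients, so that strain, course and purification cannot be told apart for it.

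The respiratory chain passes electrons from NADH (complex I) and succinate (complex II) through complex III and cytochrome c to complex IV, which reduces oxygen. The proton gradient built on the way drives ATP synthase, and the ADP/ATP carriers of the inner membrane exchange the ATP made for cytosolic ADP. Several of these proteins are encoded in the worm by more than 1 gene, with copies that can differ in the tissue where they are used. A footprint count reports ribosomes on an mRNA, so it reflects both the amount of the mRNA and its translation.

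The 41 genes together took between 2.13 and 3.01% of the counts of a library, at a depth between 5020197 and 32261888 counts. Levels are given as CPM (counts relative to library size) scaled with TMM factors over all 43 libraries, and levels of different genes are compared per 100 codons. Early denotes 18 to 24 h (4 libraries per strain) and late 28 to 36 h (5 libraries). Changes are log2 fold changes ± standard error (SE) from edgeR quasi-likelihood fits of the counts, called at a Benjamini-Hochberg adjusted p under 0.05 over all genes tested. Since each hour has 1 library, the hours within a window served as replicates and a p-value reflects the spread between hours, not between cultures.

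Per codon, ant-1.1 was the most heavily occupied of the 41 genes in N2, at 1917 ± 262 CPM per 100 codons (mean ± SD over 11 hours). The catalytic ATP synthase subunits followed, with atp-1 (alpha) at 836 ± 93.0 and atp-2 (beta) at 795 ± 109.6, and atp-4 (coupling factor 6) was the lowest of the 5 ATP synthase genes at 329 ± 47.6. The means of atp-1 and atp-2 differed by less than their SD over hours. Complex IV ran from 277 ± 25.2 (cox-6A) to 603 ± 52.8 (cox-6B), and the cytochrome c gene cyc-2.1 stood at 381 ± 48.3. The 6 complex I genes lay close together, from nuo-5 at 87.7 ± 7.36 to nuo-6 at 124 ± 12.1. In complex III ucr-11 was the highest at 222 ± 26.8 and the core-protein copy ucr-2.3 the lowest at 22.2 ± 12.8 CPM per 100 codons. In complex II the membrane anchor sdhd-1 stood at 142.2 ± 15.1, while the flavoprotein copy sdha-2 was the lowest at 20.4 ± 8.35. The assembly factors, among them enzymes of heme synthesis and copper chaperones, were at lower levels than its subunits: the 7 ran from 7.30 ± 0.949 for the heme O synthase cox-10 to 46.7 ± 4.52 for cox-14. At the bottom was the carrier copy ant-1.2, at 0.0110 ± 0.0189 CPM per 100 codons.

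Summed over all 41 genes, N2 held 25025 CPM at 18 h, 31618 CPM at 32 h and 22196 CPM at 38 h. The sum was 23370.3 CPM at 18 h, 31210.3 at 26 h and 24934 at 38 h in lin-41(xe11). In the combined mutant it was 27229, 30674 and 24642 CPM at 18, 32 and 38 h, and in let-7(n2853) it was 26766 CPM at 18 h, 30093 at 32 h and 27389 at 36 h. In the 3 strains sampled to 38 h the sum thus lay lower at 38 h than between 26 and 32 h, and each sum moved by less than 1.5 times over the course. Summed complex IV ran from 3404 to 4559 CPM in N2 and from 4918 to 5826 in let-7(n2853), so those 2 strains did not overlap. The cytochrome c gene cyc-2.1 was higher in let-7(n2853) than in N2 at each hour, between 512 and 698 CPM against 350.1 to 516 CPM in N2, with the ranges overlapping. Such level differences between the 2 courses cannot be told apart from the purification.

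**Figure D1:**
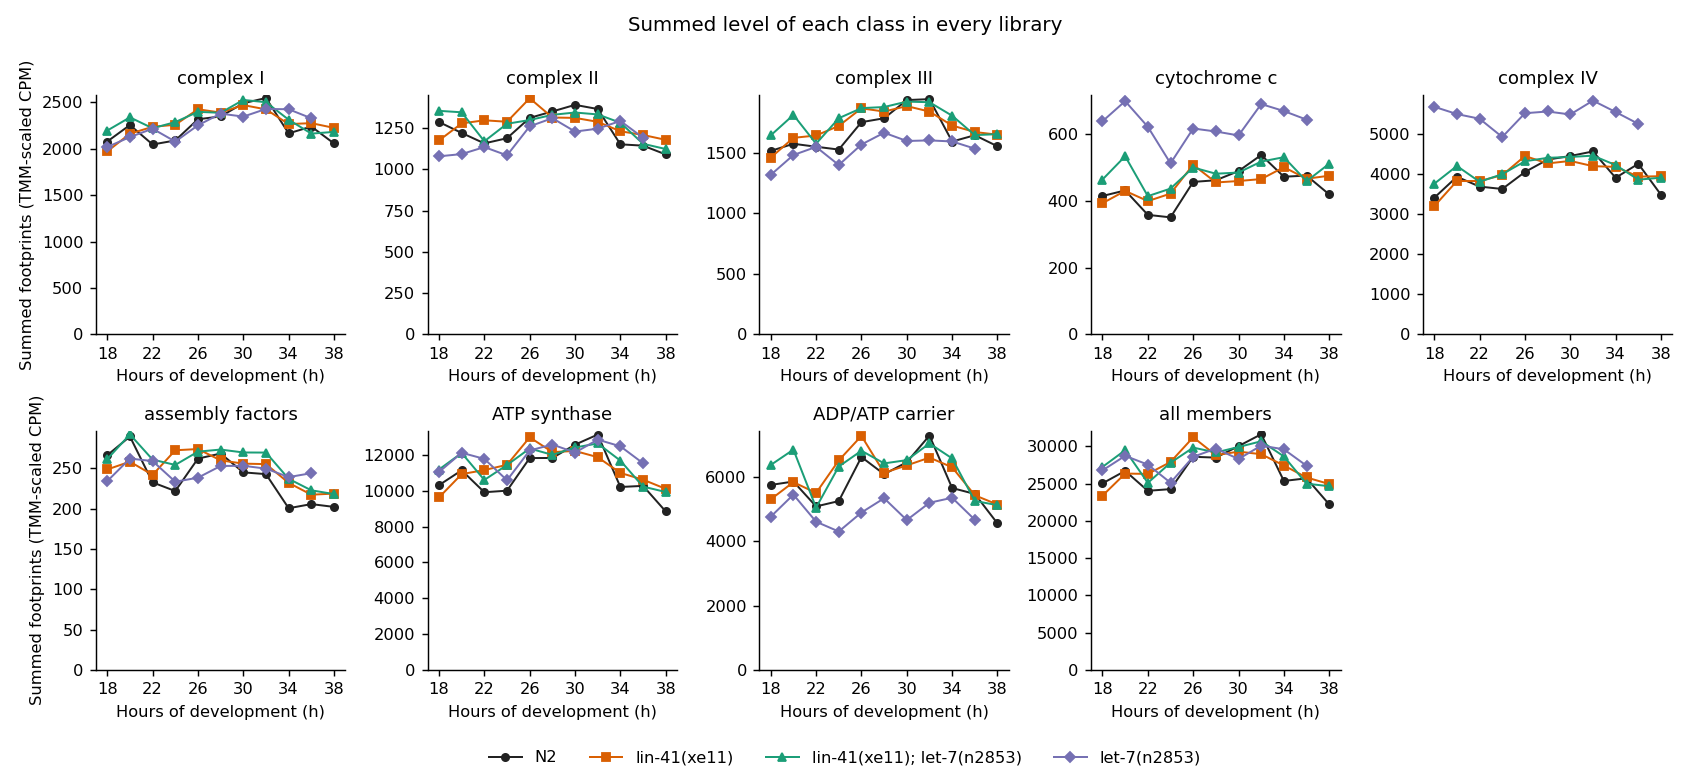
Summed footprints of each class of genes (TMM-scaled CPM, vertical axis from 0) against hours of development in the 4 strains; every point is 1 library. The sum over all 41 genes stayed between 22196 and 31618 CPM in the 43 libraries, and complex IV lay higher in the let-7(n2853) course than in N2.

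Most of the chain changed little between the windows. Apart from 5 copies described below (ant-1.3, ant-1.4, cyc-2.2, sdha-2 and ucr-2.3) and ant-1.2, 35 genes were tested in every strain. Their log2 changes from early to late ran from −0.39 (cox-19) to 0.31 (cox-5B) in N2, with a median of 0.15. The range was −0.25 to 0.26 in lin-41(xe11), −0.19 to 0.22 in the combined mutant and −0.13 to 0.34 in let-7(n2853). Over a whole course, the highest of these genes' hourly levels was a median of 1.41 times the lowest in N2, 1.38 times in lin-41(xe11), 1.29 times for the combined mutant and 1.22 times in let-7(n2853).

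In N2, 9 of the 39 genes tested were called higher and 0 lower, against 8.33% of all genes called higher and 8.13% lower. Among the copies described below, ant-1.3 and ant-1.4 passed the filter on low counts through their late libraries alone and so had to differ. Beside 4 of those copies, small rises were called for cox-5B (0.31 ± 0.08, adjusted p = 0.034) and cox-5A (0.29 ± 0.07, adjusted p = 0.0323), subunits of complex IV. The same held for atp-4 (0.29 ± 0.07, adjusted p = 0.03) and for the complex I genes nuo-3 (0.24 ± 0.07, adjusted p = 0.0393) and nuo-6 (0.23 ± 0.07, adjusted p = 0.0441). The levels of cox-5B were 396, 475, 441 and 427 CPM from 18 to 24 h and 535, 563, 566, 492 and 558 CPM from 28 to 36 h. Every late library was above every early one, and at 38 h the level was 471 CPM, below the highest early library. For atp-4 the early levels were 369, 415, 370.1 and 361 CPM and the late ones 495, 469, 523, 432 and 425 CPM. Its groups also did not overlap, and its level of 333 CPM at 38 h was the lowest of the course. Of 16 alternative settings, 7 called cox-5B, 7 atp-4, 6 cox-5A, 5 nuo-3 and 4 nuo-6. Leaving out any 1 of the hours 18, 22, 24, 32 and 34 ended the call of each of the 5. Scaled by library totals alone, which put the median of all genes at −0.18 in place of −0.02, N2 had 4 calls higher and 2 lower (cox-17 and cox-19).

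In lin-41(xe11) 4 genes were called higher and 0 lower, against 9.01% and 8.24% of all genes. In the combined mutant the counts were also 4 and 0, against 6.55% and 6.05%. In let-7(n2853) they were 6 and 0, against 10.1% and 10.3%. In every strain ant-1.3, ant-1.4, sdha-2 and ucr-2.3 were among them. Of these, ant-1.3 in all 4 strains and ant-1.4 in N2 and lin-41(xe11) passed the filter on low counts through late libraries alone, with no early library at 1 CPM, so nothing is read from these counts against the share of all genes. In let-7(n2853) the iron-sulphur subunit nuo-5 of complex I (0.34 ± 0.08, adjusted p = 0.0228) and the iron-sulphur subunit sdhb-1 of complex II (0.20 ± 0.05, adjusted p = 0.0339) were called besides. Footprints on nuo-5 there were 522, 565, 657 and 597 CPM early and 687, 724, 759, 792 and 719 CPM late, without overlap. The call of nuo-5 held in 8 of 16 alternative settings and that of sdhb-1 in 3. Leaving out any 1 of 18, 20, 32, 34 and 36 h ended both calls, and leaving out 22, 24 or 28 h ended that of sdhb-1. With library totals alone, let-7(n2853) had 4 calls higher and 1 lower (cox-18). None of the 7 assembly factors was called in any strain at this threshold, and cox-19, a copper chaperone, had N2 levels of 10.6, 14.2, 9.25 and 10.51 CPM early and 8.97, 7.83, 11.1, 8.07 and 6.87 CPM late, which overlap (−0.39 ± 0.16, adjusted p = 0.135, edgeR).

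**Figure D2:**
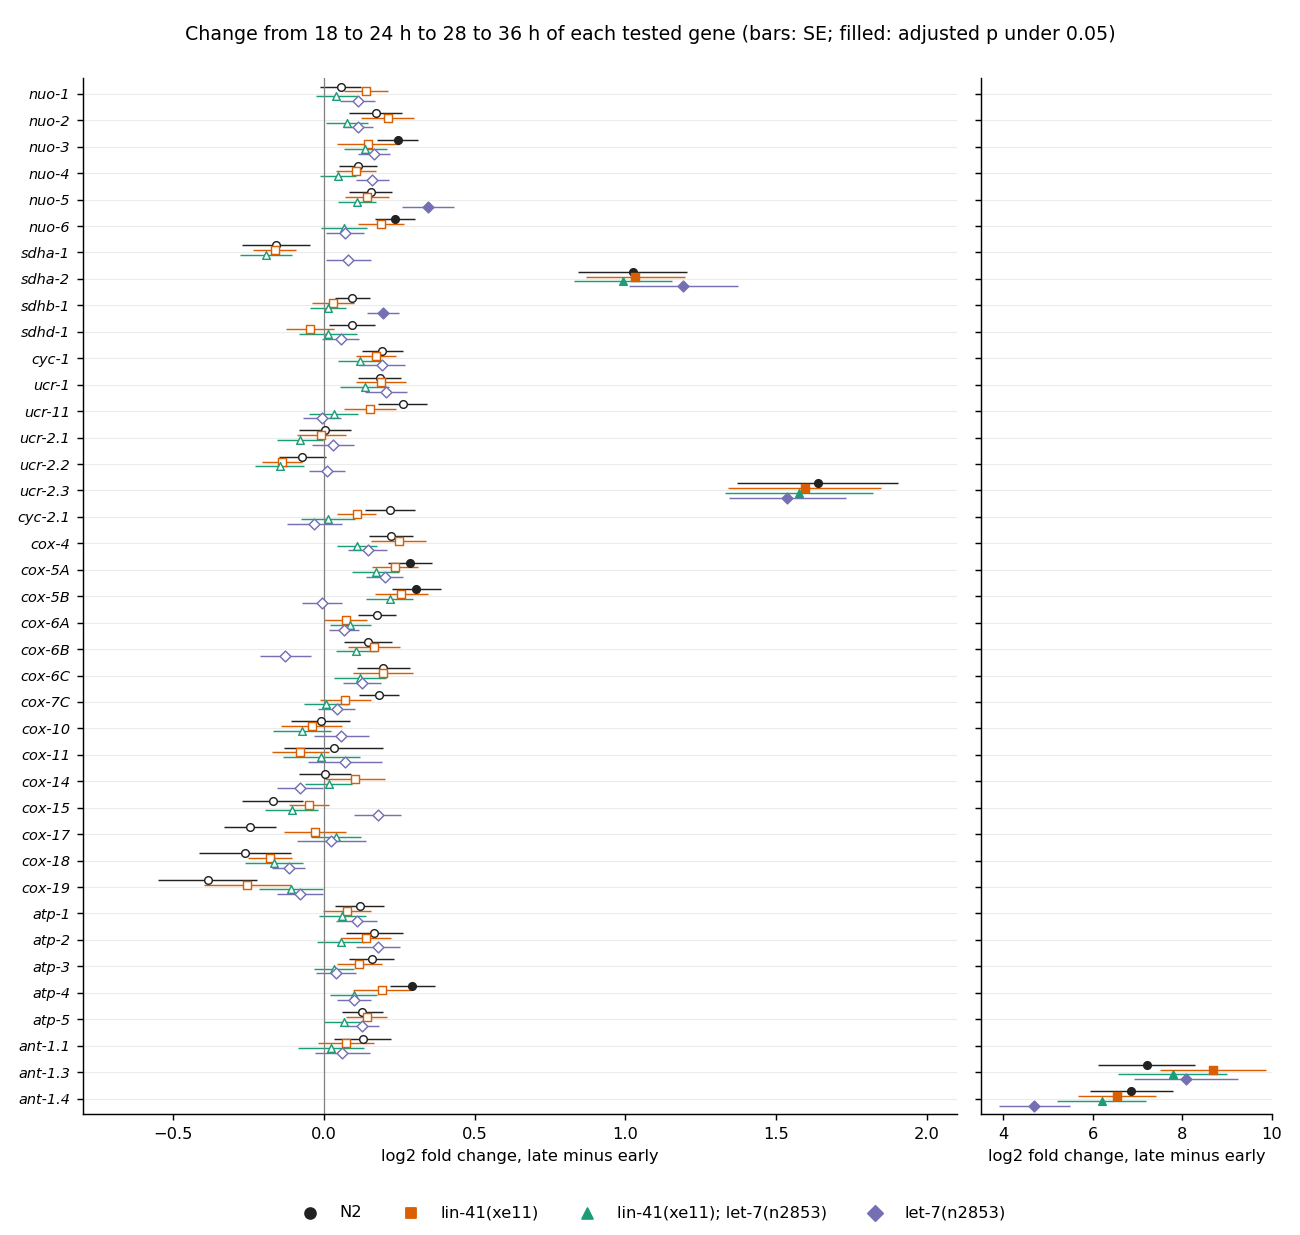
Log2 fold change from 18 to 24 h to 28 to 36 h of each tested gene in the 4 strains, with the SE of the edgeR fit as bars; filled symbols have an adjusted p under 0.05, and the right panel continues the scale. Most genes lie within −0.39 and 0.34, sdha-2 and ucr-2.3 between 0.99 and 1.64, and ant-1.3 and ant-1.4 at 4.69 or higher. As ant-1.3, and ant-1.4 in N2 and lin-41(xe11), passed the filter on low counts through late libraries alone, their filled symbols are no support for a rise. The symbol of ant-1.4 in the combined mutant shares part of this limit.

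The 4 ADP/ATP carrier genes behaved in 3 ways. The gene ant-1.1 (chromosome III) was high at all hours. Its levels in N2 were 5749.8, 5857, 5082 and 5247 CPM from 18 to 24 h and 6069.6, 6405, 7154, 5431 and 5259.6 CPM from 28 to 36 h, and the windows overlapped (0.13 ± 0.09, adjusted p = 0.377). In lin-41(xe11) they were 5303, 5837, 5500.4 and 6513 CPM early and 6112, 6303, 6460.1, 6079 and 5226 CPM late. In the combined mutant they were 6370.0, 6848, 5046 and 6322 CPM early and 6412, 6466, 6915, 6373 and 5037 CPM late. In let-7(n2853) they were 4759, 5447, 4605 and 4301 CPM early and 5326, 4601, 5086, 5176 and 4469 CPM late. The windows overlapped in each of these strains as well, with changes of 0.07, 0.02 and 0.06 (adjusted p = 0.645, 0.93 and 0.715, edgeR). The gene ant-1.2 (chromosome I) had between 0 and 3 counts in every one of the 43 libraries and was not tested. Its early and late counts summed to 1 and 1 in N2, 4 and 3 in lin-41(xe11), 2 and 2 for the combined mutant, and 5 and 8 in let-7(n2853).

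The genes ant-1.3 and ant-1.4 (both chromosome IV, both 313 codons) were near 0 from 18 to 24 h and rose together from 28 h. Footprints on ant-1.4 in N2 were 0.665, 0.574, 0.351 and 0.597 CPM from 18 to 24 h, 1.64 at 26 h, 9.11, 28.8, 74.1, 111 and 101 CPM from 28 to 36 h and 75.2 at 38 h. In lin-41(xe11) the early levels were 0.625, 0.944, 0.953 and 0.331 CPM, the level at 26 h was 1.73, the late ones were 9.72, 31.5, 73.6, 115 and 98.3 CPM and that at 38 h was 88.2. In the combined mutant the same hours gave 1.35, 0.708, 0.150 and 1.07, then 1.70, then 5.50, 32.9, 66.3, 104.3 and 107 from 28 to 36 h, with 83.0 CPM at 38 h. The 3 courses were alike: each late library was above each early one, and the highest level came at 34 h in N2 and lin-41(xe11) and at 36 h in the combined mutant. In let-7(n2853) the early levels were 3.32, 2.62, 2.04 and 1.01 CPM, that at 26 h was 4.35 and the late ones were 7.57, 30.0, 60.1, 88.5 and 96.3 CPM. Its 18 to 22 h libraries were above every early library of the other strains, while the late ones were not. Footprints on ant-1.3 in N2 were 0.370, 0.191, 0.586 and 0.478 CPM early, 0.756 at 26 h, 6.25, 23.6, 59.9, 112 and 110.3 CPM late and 90.5 at 38 h. In lin-41(xe11) they were 0.0893, 0.315, 0 and 0.110 CPM early and 6.65, 24.3, 68.0, 106 and 105 late, and in the combined mutant 0.169, 0.405, 0 and 0.413 early and 3.70, 24.6, 60.9, 99.5 and 109 late. In let-7(n2853) they were 0.104, 0.159, 0.136 and 0.389 CPM early and 3.43, 26.7, 50.5, 87.9 and 103 late, so for ant-1.3 no early let-7(n2853) library was above the highest early library of N2.

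The log2 changes of ant-1.4 were 6.86 ± 0.92 in N2, 6.54 ± 0.87 in lin-41(xe11), 6.20 ± 0.99 for the combined mutant and 4.69 ± 0.79 in let-7(n2853) (adjusted p = 0.0133 and 0.00738 in the last 2, edgeR). Those of ant-1.3 were 7.21 ± 1.08, 8.69 ± 1.18, 7.78 ± 1.22 and 8.08 ± 1.15. As ant-1.3, and ant-1.4 in N2 and lin-41(xe11), entered these fits through late libraries alone, their p is given from the fit with no filter on low counts. There the adjusted p of ant-1.4 was 0.0142 in N2 and 0.0112 in lin-41(xe11), and that of ant-1.3 was 0.0158, 0.0112, 0.0193 and 0.00849 in the 4 strains (edgeR). Over the 10 alternatives that tested them, the highest adjusted p of these 6 was 0.0479 and the lowest 3.6e-19. Alternatives with the filter on low counts share its limit, so this range is no support for the rises. In the combined mutant ant-1.4 was under 1 CPM in some early libraries, and its 5 late libraries met the filter by themselves. Its p there shares part of this limit. From summed counts, which rest on 20 early counts in N2, the level of ant-1.4 rose by a ratio of 106 (95% counting interval 68.5 to 174), and in let-7(n2853), with 216 early counts, by 25.5 (95% counting interval 22.2 to 29.3). For ant-1.3 the ratio was 138 (95% counting interval 83.2 to 246) in N2 and 263 (95% counting interval 170.4 to 431) in let-7(n2853). These intervals cover counting error alone. In N2 and lin-41(xe11), both genes fell below the filter on low counts when any 1 late hour was left out, so they were not tested there. The late window without 34 and 36 h gave no call for ant-1.4 in the combined mutant (5.27, adjusted p = 0.094) or in let-7(n2853) (3.87, adjusted p = 0.0527). The 2 genes are close paralogs and the treatment of reads that fit both is not given in the sources used here, so the split of counts between them is uncertain.

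Set beside the other copies in the same libraries, ant-1.4 rose against ant-1.1 and ant-1.2 in every strain. The mean log2 ratio of ant-1.4 to ant-1.1 (CPM + 1) in N2 went from −11.79 ± 0.0922 (SD, n = 4) to −6.97 ± 1.53 (SD, n = 5, exact permutation p = 0.0159, two-sided). The adjusted p over the 12 ratio tests was 0.0238, and both values were the same for the exact permutation tests against ant-1.1 and ant-1.2 in all 4 strains. Since ant-1.1 changed little and ant-1.2 stayed near 0, these ratios carry the rise of ant-1.4 itself and are no separate support for it. The hours follow a course, so the p of a ratio test describes only how far the windows were apart. The ratio to ant-1.1 rose by 4.81 in lin-41(xe11), 4.63 in the combined mutant and 3.72 in let-7(n2853). Against ant-1.2 it rose by 4.97, 4.91, 4.68 and 3.75 in N2, lin-41(xe11), the combined mutant and let-7(n2853). Against ant-1.3 the ratio moved by 0.04 in N2 (adjusted exact permutation p = 0.81), −0.40 in lin-41(xe11) (0.0667) and −0.30 in the combined mutant (0.165). In let-7(n2853) it moved by −1.14 (adjusted exact permutation p = 0.0317). With 0.1 in place of 1 CPM added, the ratio to ant-1.3 also moved in lin-41(xe11) (−1.72) and the combined mutant (−1.18), each at an adjusted exact permutation p = 0.0119. Within the late hours, counts of ant-1.4 divided by those of ant-1.3 were 1.46, 1.22, 1.24, 0.989, 0.917 and 0.831 at 28, 30, 32, 34, 36 and 38 h in N2. They were 1.46, 1.298, 1.08, 1.08, 0.936 and 0.981 in lin-41(xe11), 1.49, 1.34, 1.09, 1.05, 0.980 and 0.813 in the combined mutant and, to 36 h, 2.21, 1.12, 1.19, 1.01 and 0.939 in let-7(n2853). In each course ant-1.4 led at 28 to 32 h and ant-1.3 was ahead from 36 h. Together the 2 copies made up 0.0172% of the carrier footprints per codon in N2 at 18 h and 3.71% at 36 h, where let-7(n2853) stood at 4.09%, so ant-1.1 remained the bulk of this class.

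**Figure D3:**
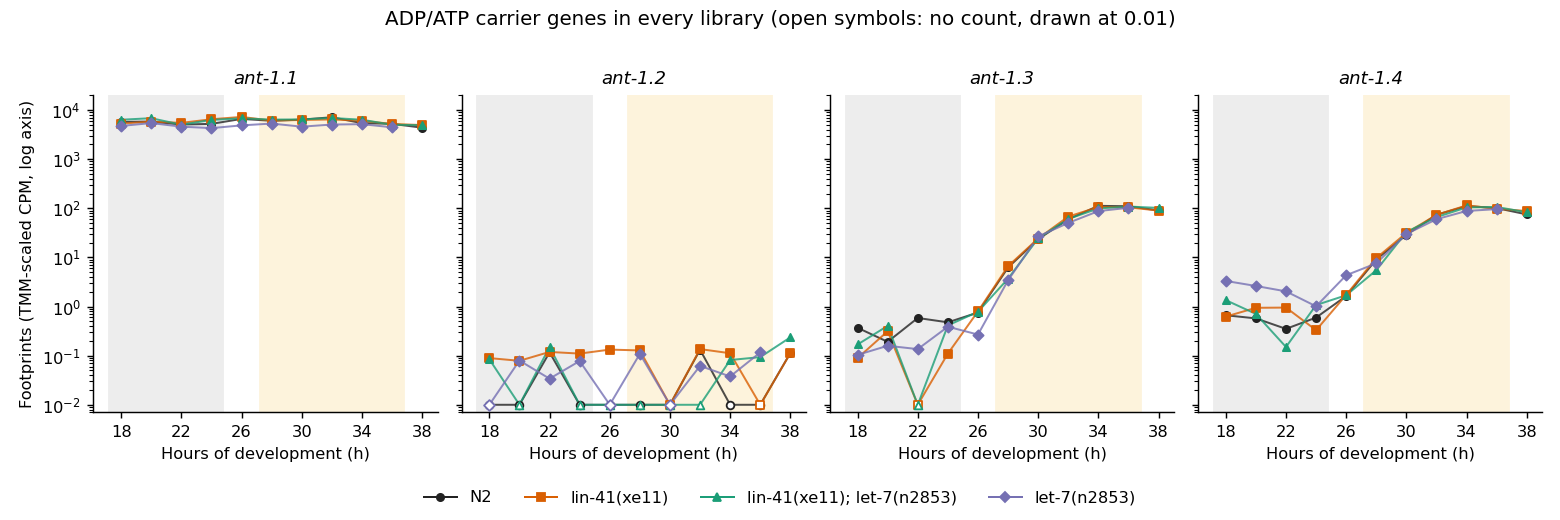
Footprints on the 4 ADP/ATP carrier genes (TMM-scaled CPM, log axis) against hours of development; every symbol is 1 library, open symbols have no count and are drawn at 0.01, and the shaded spans are the early and late windows. The gene ant-1.1 stays between 4301 and 7275 CPM in the 43 libraries, ant-1.2 does not exceed 0.236 CPM, and ant-1.3 and ant-1.4 climb from 26 to 34 h in all 4 strains. In the strains sampled to 38 h both are lower at 38 h than at 36 h.

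The cytochrome c copies followed the same division. The gene cyc-2.1 (chromosome IV) was at 414, 431, 358 and 350.1 CPM early and 461, 482, 516, 413 and 412 CPM late in N2, without a call (0.22 ± 0.08, adjusted p = 0.103, edgeR). The other copy, cyc-2.2 (chromosome V), had 1 count over the 4 early libraries of N2, lin-41(xe11) and the combined mutant each and 2 in let-7(n2853). In N2 it was at 0.0739, 0, 0 and 0 CPM early, 0.126 at 26 h, 0.408, 5.96, 20.8, 58.9 and 63.5 CPM from 28 to 36 h and 59.3 at 38 h. The late levels were 0.895, 6.80, 30.2, 50.5 and 64.9 CPM in lin-41(xe11) and 0.400, 7.27, 24.7, 48.8 and 63.5 CPM in the combined mutant, and both stood near these values at 38 h (56.0 and 64.2 CPM). In let-7(n2853) they were 0.490, 10.6, 39.5, 68.7 and 96.5 CPM. Every late library was above every early one in each strain. The count ratio of late to early was 1005 (95% counting interval 180.1 to 39726) in N2 and 2108 (95% counting interval 583 to 17408) in let-7(n2853). With 4 late libraries of each strain at 1 CPM or more (30 to 36 h), cyc-2.2 was under the filter, which asks for 5, and was not tested in the early to late fits. Its start was later than that of ant-1.4: at 28 h in N2 cyc-2.2 had reached 0.642% of its highest level and ant-1.4 8.19% of its own. Per codon, cyc-2.2 made up 1.102% of the cytochrome c footprints of N2 at 30 h, 12.2% at 36 h and 12.96% at 38 h.

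The copies sdha-2 and ucr-2.3 differed from these in being translated at higher levels in the early hours. Both were highest at the last hour sampled, as were ant-1.3, ant-1.4 and cyc-2.2 in let-7(n2853) and cyc-2.2 in the combined mutant. The gene sdha-2 (chromosome I, complex II flavoprotein, 640 codons) was at 66.4, 73.3, 78.8 and 90.9 CPM early, 111 at 26 h, 127, 141.9, 147, 175 and 196 CPM late and 229.6 at 38 h in N2. In lin-41(xe11) it was at 73.9, 76.6, 83.9 and 101 CPM early and 138, 156, 163, 182 and 205 late, and in the combined mutant at 72.3, 76.7, 80.2 and 97.1 early and 127, 159, 154, 171 and 195 late. In let-7(n2853) it was at 42.7, 55.8, 69.3 and 73.0 CPM early and 116, 122, 132, 150.2 and 160.4 late. In each strain the windows were apart, and the highest level was that of the last hour sampled. The changes were 1.02 ± 0.18 in N2, 1.03 ± 0.16 in lin-41(xe11), 0.99 ± 0.16 for the combined mutant and 1.19 ± 0.18 in let-7(n2853) (adjusted p = 0.0124, 0.00841, 0.0135 and 0.00573, edgeR). Its paralog sdha-1 (chromosome X, 646 codons) was not called: its N2 levels were 666, 631, 555 and 566 CPM early, 610.1, 634, 622, 461 and 418 CPM late and 382 at 38 h (−0.16 ± 0.11, adjusted p = 0.356). Per codon, the share of sdha-2 in the flavoprotein footprints of N2 went from 9.14% at 18 h to 17.3% at 28 h and 37.7% at 38 h. At 38 h it was 36.3% in lin-41(xe11) and 35.3% in the combined mutant.

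The gene ucr-2.3 (chromosome III), 1 of 3 genes for core protein 2 of complex III, was at 29.3, 33.9, 44.4 and 52.9 CPM early, 73.4 at 26 h, 89.6, 103, 118, 146 and 168 CPM late and 187 at 38 h in N2. In lin-41(xe11) the levels were 28.8, 37.4, 51.5 and 54.6 CPM early and 95.05, 110.4, 123, 150.5 and 160.2 late, and in the combined mutant 31.5, 38.6, 38.3 and 57.8 early and 89.7, 106, 123, 137 and 158 late. In let-7(n2853) they were 25.1, 27.7, 31.6 and 39.8 CPM early and 68.1, 80.6, 86.0, 97.3 and 113 late. No early library reached any late one within a strain. The changes were 1.64 ± 0.27, 1.60 ± 0.25, 1.58 ± 0.25 and 1.54 ± 0.19 in N2, lin-41(xe11), the combined mutant and let-7(n2853) (adjusted p = 0.0117, 0.00848, 0.0127 and 0.00439, edgeR). The other core protein 2 genes, both on chromosome X, were not called: the log2 change of ucr-2.1 was 0.00 ± 0.09 and that of ucr-2.2 −0.07 ± 0.08 in N2. Their N2 levels at 38 h, 211 and 176 CPM, were the lowest of their courses. The share of ucr-2.3 in the core protein 2 footprints per codon went from 5.15% at 18 h to 32.4% at 38 h in N2. The calls of sdha-2 and ucr-2.3 held in 15 of 16 alternative settings in every strain. The exception was the late window without 34 and 36 h, where N2 gave 0.79 for sdha-2 and 1.31 for ucr-2.3 (adjusted p = 0.0522 for both, edgeR), and the adjusted p in the other strains lay between 0.0515 and 0.094. In all, 466 of 11349 genes tested in every strain, 4.11%, were called higher in all 4.

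Other genes of the same machinery, taken from lists of complex subunits not covered by the symbol rule, held further copy pairs. Of 10 other complex I genes 2 were called higher in N2, against 8.33% of all genes. The larger change was that of nduf-2.2 (1.59 ± 0.27, adjusted p = 0.0119, edgeR), a paralog of the core subunit gene gas-1. Levels of nduf-2.2 in N2 were 19.6, 23.2, 28.7 and 33.8 CPM early and 53.8, 65.5, 77.0, 89.2 and 111 CPM late, without overlap, while gas-1 was at 321, 340.1, 316 and 299 CPM early and 333, 351, 348, 259 and 271 CPM late and was not called (−0.05 ± 0.08, adjusted p = 0.713). The change of nduf-2.2 was 1.48 ± 0.28 in lin-41(xe11), 1.47 ± 0.25 in the combined mutant and 1.57 ± 0.22 in let-7(n2853), and it was called in each. Of 7 other ATP synthase genes, 3 were called higher in N2, lin-41(xe11) and the combined mutant and 4 in let-7(n2853), and 0 lower in any, against 8.33%, 9.01%, 6.55% and 10.1% of all genes called higher. They included asb-1, 1 of 2 genes for subunit b, at 63.9, 66.8, 72.4 and 77.8 CPM early and 137, 151, 166, 208 and 245 CPM late in N2 (1.37 ± 0.21, adjusted p = 0.0107). Its paralog asb-2 was at 854, 936, 819 and 810.4 CPM early and 940.4, 990.4, 980.1, 759 and 745 CPM late, with overlap and no call (0.03 ± 0.09, adjusted p = 0.867). The other ATP synthase genes called in N2 were asg-1 (0.53 ± 0.10) and hpo-18 (0.48 ± 0.08), for subunits g and epsilon.

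Of 2 other genes of complexes II and III and 3 of complex IV tested in N2, 0 were called. Of 27 genes for mitochondrial import, chaperones and proteases, 2 were called higher and 0 lower in N2, a share near the 8.33% of all genes called higher. They were timm-17B.2 (2.52 ± 0.45, adjusted p = 0.0125), a copy of the import channel subunit Tim17, and immt-2 (1.67 ± 0.32, adjusted p = 0.0146), a copy of the cristae protein mitofilin. Its paralog immt-1 was not called (−0.14 ± 0.11, adjusted p = 0.392, edgeR). Levels of timm-17B.2 from 28 to 36 h were 4.49, 5.96, 10.3, 11.8 and 17.5 CPM in N2, 7.42, 10.3, 13.9, 25.3 and 27.4 for lin-41(xe11) and 4.70, 6.31, 11.3, 13.8 and 20.8 for the combined mutant, so lin-41(xe11) was the highest of the 3 at each of these hours. This held from 18 to 24 h as well, at 2.50, 4.09, 2.98 and 4.30 CPM against 1.70, 1.91, 1.41 and 2.03 in N2. In let-7(n2853), from the other course, the levels were 3.53, 6.44, 7.34 and 7.08 CPM early and 39.2 CPM at 36 h. In the joint fit of N2, lin-41(xe11) and the combined mutant, the late level of timm-17B.2 was called higher in lin-41(xe11) than in N2 (0.75 ± 0.10, adjusted p = 0.00117, edgeR) and lower in the combined mutant than in lin-41(xe11) (−0.59 ± 0.10, adjusted p = 0.0198, edgeR). Against N2, timm-17B.2 was called neither early nor in the change from early to late. It was the single gene of these lists of mitochondrial genes called between strains; 15 of 17 alternative settings kept the first call and 10 of 17 the second. Both were lost without 34 and 36 h and without the hour term, and the second also in the deposited log2 table (limma) and on leaving out 28, 30, 34 or 36 h. Of 19 genes of pyruvate dehydrogenase and the tricarboxylic acid cycle, 4 were called higher in N2, against 8.33% of all genes, with sucl-2 (0.69 ± 0.17) and idhg-1 (0.45 ± 0.09) the largest of those. Of 11 other mitochondrial carriers and channels and 8 genes of ubiquinone synthesis, 0 were called in N2. The median changes of these lists in N2 were 0.02 and −0.20, against −0.02 over all genes tested. Of 18 glycolysis genes tested in N2, gpd-4 (a glyceraldehyde-3-phosphate dehydrogenase) was called higher (1.57 ± 0.38) and the aldolase aldo-1 lower (−0.49 ± 0.09), against 8.33% and 8.13% of all genes.

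**Figure D4:**
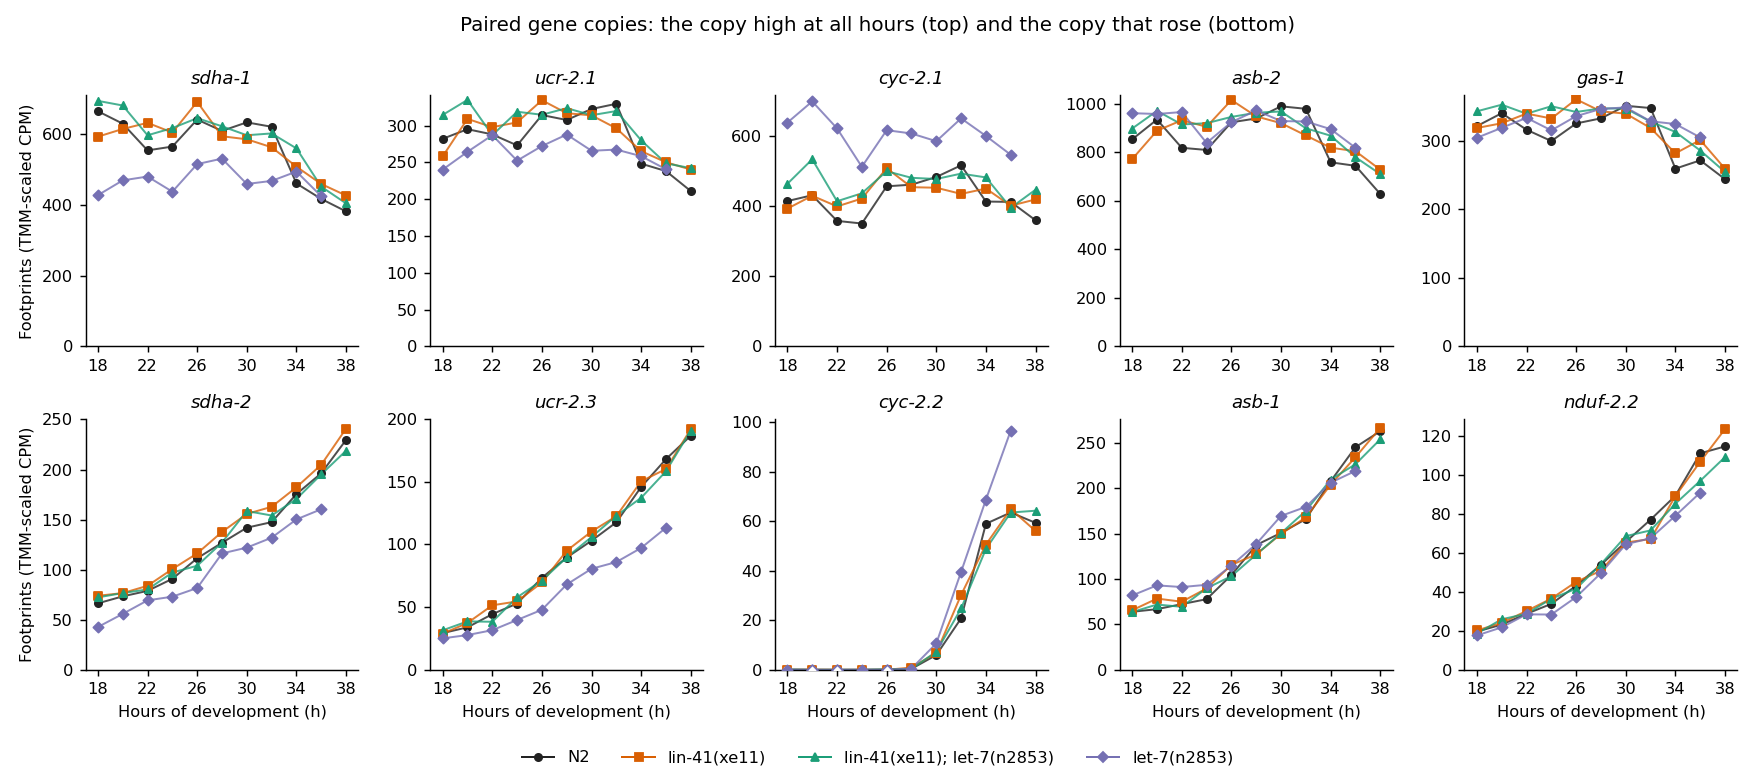
Footprints (TMM-scaled CPM, axes from 0) against hours of development for 5 pairs of gene copies; every symbol is 1 library, the upper row holds the copy that was high at all hours and the lower row its paralog, and open symbols have no count. All 5 lower-row genes are higher in every late than in every early library of the same strain, with cyc-2.2 at 1 CPM or more from 30 h, while the upper-row genes overlap between the windows; sdha-2 in N2 goes from 66.4 CPM at 18 h to 229.6 CPM at 38 h.

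These rises went with those of germline and sperm genes. Of 19 germline markers tested, 16 were called higher in N2, against 8.33% of all genes, and 0 lower, and the summed level of the list was 522 to 847 CPM early and 1269 to 2224 CPM late. The counts were 19 in lin-41(xe11), 17 in the combined mutant and 19 in let-7(n2853), against 9.01%, 6.55% and 10.1%. Of 16 sperm markers, 6 passed the filter in N2 and all 6 were called, which that filter favours. The summed level of the 16 was 0.383 to 1.18 CPM early and 14.3 to 892 CPM late in N2, with 9 of the 16, msp-31 and msp-142 among them, at 0 in every early library. In let-7(n2853) the sperm sum was 0.778 to 1.09 CPM early and 8.17 to 789 late. Of 13 muscle markers 0 were called higher and 1 (myo-3) lower in each strain, with a summed level of 20737 to 23241 CPM early and 19383 to 26167 late in N2. In N2, 0 higher and 11 lower were called of 14 neuron markers, 0 higher and 0 lower of 10 intestine markers, 1 higher and 0 lower of 12 epidermis markers and 2 higher and 0 lower of 5 oocyte and yolk markers tested, where 8.33% of all genes were called higher and 8.13% lower. In whole animals, more cells of a type and more translated mRNA per cell cannot be told apart, and the part of the germline or of sperm formation in the rise of these copies was not tested.

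Over the 33 libraries of the course of N2, lin-41(xe11) and the combined mutant, 13691 genes passed the filter on low counts. Those of them with a symbol were ranked by how like ant-1.4 their log2(CPM + 1) was. The nearest 5 were ant-1.3 (Pearson r = 0.996), H20J04.1 (0.993), fer-1 (0.993), B0393.4 (0.992) and C44B9.2 (0.991). Of these fer-1, needed for membrane fusion in sperm, was on the sperm marker list, as was ssp-16 among those nearest to cyc-2.2. The other genes named as nearest to ant-1.4 or to cyc-2.2 were not on that list. The same ranking was made for 4 other copies, which were chosen after their values were seen. For ant-1.3 they were Y113G7C.1, T10E9.4, ant-1.4, F01G10.5 and plk-3 (r from 0.994 to 0.996), with 2 genes nearer than ant-1.4. The nearest to cyc-2.2 were ZK1248.5, clec-123, ZK1010.5, ssp-16 and Y53F4B.11, with r from 0.998 to 0.999. For sdha-2 they were wago-1, iff-1, asb-1, nduf-2.2 and ucr-2.3 (r from 0.990 to 0.994), and for ucr-2.3 rpl-11.1, wago-1, iff-1, immt-2 and nduf-2.2 (r from 0.994 to 0.996). The 33 points share hours across strains, and the correlations are descriptions with no test.

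No difference between the strains of the N2 course was called in these genes in the late window. In a joint fit of N2, lin-41(xe11) and the combined mutant with a term for each hour, 0 of 40 genes tested were called in lin-41(xe11) against N2, where 0.415% of all genes were, and 0 in the combined mutant against N2, where 0.911% were. At an unadjusted p under 0.05, edgeR found 2 and 4 of the 40 (7.78 and 10.8% of all genes), and DESeq2 called 0 in both. The 2 for lin-41(xe11) were sdha-2 (0.10 ± 0.04, adjusted p = 0.456) and cox-15 (0.11 ± 0.05, adjusted p = 0.639). The 4 for the combined mutant were the assembly factors cox-10, cox-14, cox-15 and cox-17, at 0.15, 0.16, 0.15 and 0.16 (adjusted p from 0.28 to 0.428). The late difference of ant-1.4 from N2 was 0.03 (95% interval −0.22 to 0.29) in lin-41(xe11) and −0.09 (95% interval −0.34 to 0.16) in the combined mutant. For cyc-2.2 the differences were 0.12 (95% interval −0.15 to 0.38) and 0.00 (95% interval −0.27 to 0.26), and for ucr-2.3 0.04 (95% interval −0.08 to 0.16) and −0.03 (95% interval −0.15 to 0.09). Over the 35 genes outside the 5 rising copies, intervals of the late difference reached from −0.32 to 0.26 in lin-41(xe11) and from −0.22 to 0.43 in the combined mutant. A missed threshold does not show that the strains were equal. Each interval is for a single gene and rests on the spread between hours, so differences between cultures are not covered.

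By edgeR, 0 genes were called in the other comparisons of that fit too. The combined mutant against lin-41(xe11), late, gave 0 calls (all genes 0.126%), with 0 of 40 at an unadjusted p under 0.05 by edgeR and 0 calls by DESeq2. In the early window, lin-41(xe11) against N2 gave 0 calls (all genes 0.0222%), 2 genes at an unadjusted p under 0.05 and 0 calls by DESeq2. The combined mutant against N2, early, gave 0 calls by edgeR (all genes 0.037%) but 12 of 40 at an unadjusted p under 0.05, against 6.59% of all genes. All 12 were higher in the combined mutant, and the largest was the complex III subunit ucr-11 (0.27 ± 0.06, adjusted p = 0.197). Its levels from 18 to 24 h were 125.6, 157, 127 and 137 CPM in the combined mutant and 98.3, 117, 117 and 115 CPM in N2, without overlap. DESeq2 called 3 of these genes, atp-5 (0.12), cyc-2.1 (0.23) and nuo-6 (0.17, with edgeR values for all 3). The share of all genes that DESeq2 called there is not given. All 12 genes were measured in the same early libraries, so they are not 12 separate differences. The change from early to late was called different from N2 for 0 genes in lin-41(xe11) (all genes 0.0%; 1 at an unadjusted p under 0.05) and for 0 in the combined mutant (all genes 0.0148%; 7), by edgeR and by DESeq2.

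**Figure D5:**
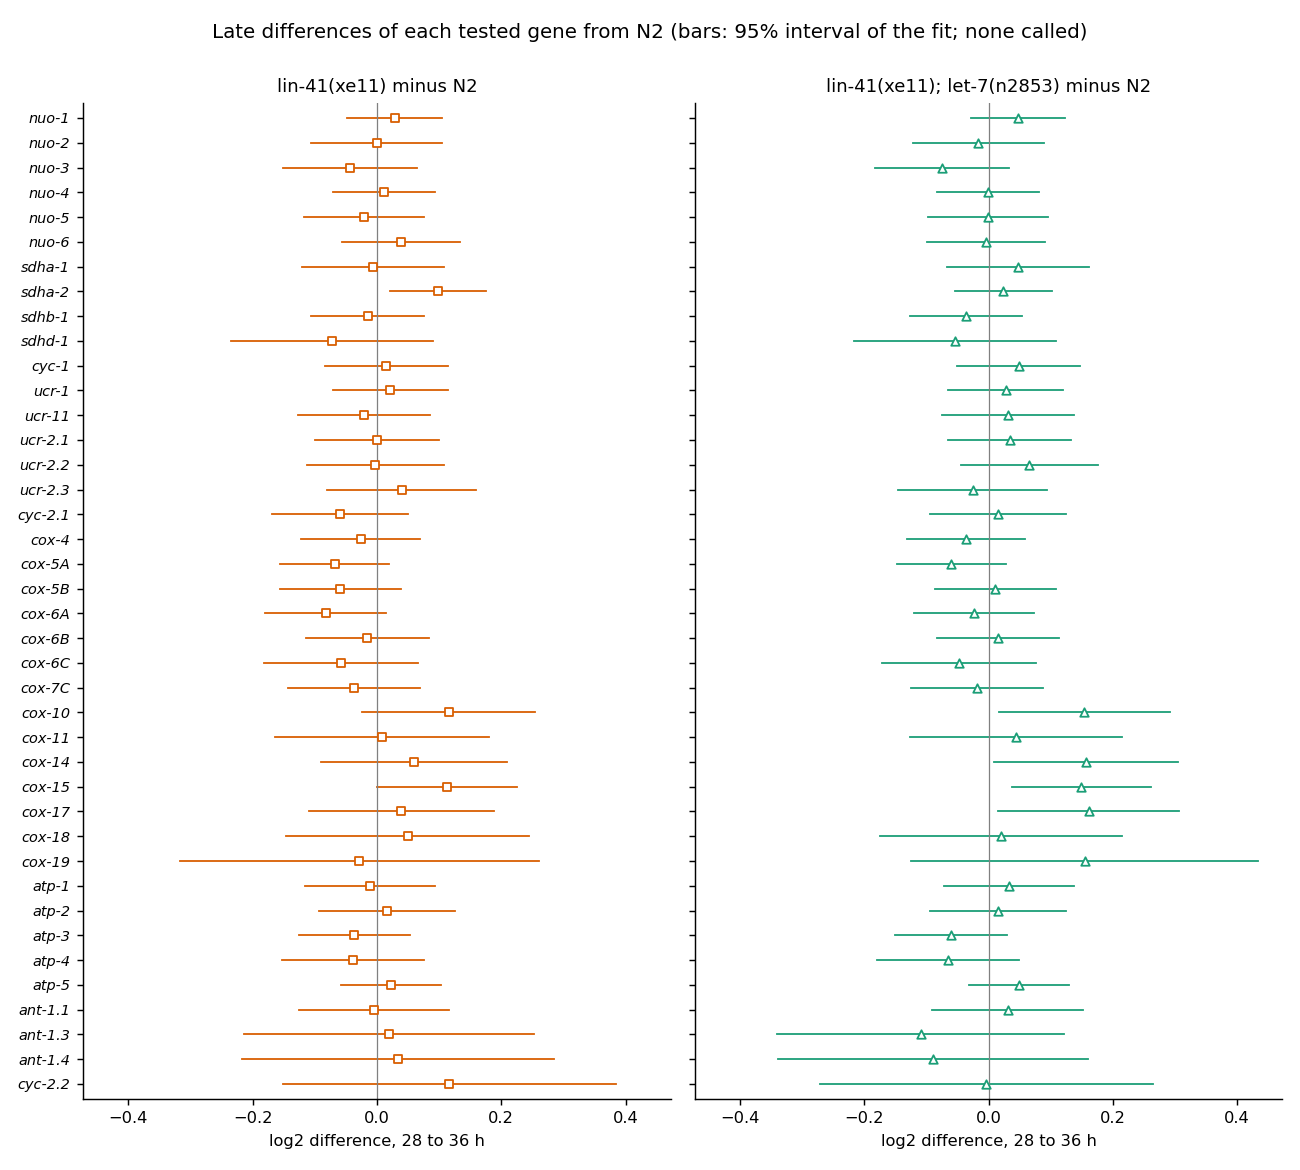
Late (28 to 36 h) log2 difference from N2 of each of the 40 tested genes in lin-41(xe11) and in the combined mutant, with the 95% interval of the joint edgeR fit as bars. The differences run from −0.08 to 0.12 in lin-41(xe11) and from −0.11 to 0.16 in the combined mutant, and none was called.

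For let-7(n2853), the change from early to late was tested against that of N2, since a constant offset between the courses drops out of it; its levels set beside those of N2 are descriptions with no test. Of 40 genes tested, 1 was called, the carrier ant-1.4, whose rise was smaller in let-7(n2853) (−2.21 ± 0.26, adjusted p = 0.0274, edgeR); of all genes 0.023% were called. As given above, its early levels were 3.32, 2.62, 2.04 and 1.01 CPM in let-7(n2853) and 0.665, 0.574, 0.351 and 0.597 CPM in N2, while at 36 h the 2 strains stood at 96.3 and 101 CPM. In the early window all 4 let-7(n2853) libraries were above all 4 of N2. Its paralog ant-1.3 differed the other way without a call (0.86 ± 0.48, adjusted p = 0.564). The counts behind the early levels of ant-1.4 and ant-1.3 in let-7(n2853) were 64 and 2 at 18 h, 66 and 4 at 20 h, 60 and 4 at 22 h and 26 and 10 at 24 h. The call of ant-1.4 was lost in the deposited log2 table (−1.18, adjusted p = 0.145, limma) and on leaving out any 1 hour but 24 h (adjusted p from 0.0622 to 0.576). Its log2 value ran from −2.52 to −2.003 in the leave-one-out fits, and without the hour term the adjusted p was 1. The strain, the course and the purification cannot be told apart here. DESeq2 also called cyc-2.1 (−0.28 in edgeR, adjusted p = 0.352).

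Many larval genes cycle with the molts, so each gene was fitted with an 8 h period beside a linear trend over the 10 hours from 18 to 36 h (limma). No gene of the 39 tested was called rhythmic in N2 (7.14% of all genes were), lin-41(xe11) (24.2%) or the combined mutant (16.8%), and 0 of the 39 had an unadjusted p under 0.05 in these 3 strains. In let-7(n2853) 1 was called, the copper-delivery factor cox-11 (adjusted p = 0.0162), where 31.6% of all genes were, and 2 had an unadjusted p under 0.05. Levels of cox-11 there were 17.24, 21.04, 16.6 and 14.1 CPM from 18 to 24 h, 18.1 at 26 h and 20.7, 16.9, 16.4, 17.1 and 18.5 CPM from 28 to 36 h, with an amplitude of 0.21 on the log2 scale. It was not called with a 7 h period or with library totals. In N2, where cox-11 stood at 20.99, 24.7, 16.04 and 15.9 CPM from 18 to 24 h, its fitted amplitude was 0.21 without a call (adjusted p = 0.325). The median amplitude of the 39 genes was 0.04 in N2, 0.06 in lin-41(xe11), 0.05 for the combined mutant and 0.04 in let-7(n2853), against 0.16, 0.18, 0.19 and 0.17 over all genes tested.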

How the data were processed

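Ribosome-protected fragments of whole worms were sequenced in 43 libraries. The deposited count table, made by the authors, holds whole-number footprint counts for 20182 genes and is the basis of every test except the alternative named for the log2 table. The deposited log2 table equals log2 of the scaled count plus 8, found by comparing it with the counts. Bowtie is named in the submitters' processing notes. Its version, the build, the gene models and the handling of reads with several matches are not given in the sources used here.

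Gene identifiers were matched exactly to symbols (18778 had 1, 1404 had none), and chromosomes and coding lengths are those of WBcel235. The fits used edgeR 4.0.16 in R 4.3.3, with quasi-likelihood tests, TMM scaling and a filter that kept genes reaching 1 CPM in 5 or more fitted libraries. Windows were compared within 1 strain at a time. Strains were compared in joint fits with a term per hour, over 27 libraries for N2, the combined mutant and lin-41(xe11), and over 18 for N2 and let-7(n2853). Intervals use each fit's degrees of freedom. Rhythms were fitted with limma 3.58.1 on log2 CPM (prior count 2), and ratios of ant-1 copies were compared by exact permutation. The fits were tested on simulated data. Alternatives were DESeq2 1.42.0 (its test, or its size factors in edgeR), library totals, no filter, the log2 table, other windows, each hour left out, no hour term, and another pseudocount or period.

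The 41 genes, the windows and all gene lists were chosen with earlier results of these data known. Named are the 4 ant-1 copies, called genes, the highest and lowest gene of each class per codon, genes under the filter, up to 4 called genes per list and the 5 genes with a symbol most like ant-1.4. Other single genes (atp-2, cox-19, genes past an unadjusted p, and paralogs of called copies) were chosen after their values were seen.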

Additional observations from a re-analysis of the deposited data

Results flagged for a closer look

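Of 80 groups of 4 or 5 libraries tested, 6 held a library far from the others. The rate of about 1 in 20 that chance gives does not apply here. The hours of a group follow a course, and a single count among zeros always stands out. In the combined mutant, late, the 36 h library was the lowest for ant-1.1 (5037 CPM) and for cyc-2.1 (395 CPM). In the combined mutant, early, the 22 h library was the lowest for ucr-2.2 (223 CPM). For cyc-2.2 the single early count made 1 library stand out in N2 (18 h, 0.0739 CPM), lin-41(xe11) (20 h, 0.0786 CPM) and the combined mutant (18 h, 0.0845 CPM), which is 1 footprint each.

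The early to late change of ant-1.4 differed between let-7(n2853) and N2 by −2.21 on the log2 scale in the edgeR test of that difference (adjusted p = 0.0274).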

How the results depend on the processing

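No call reversed its direction under the alternatives. Without 34 and 36 h, which also leaves fewer late libraries, edgeR called 0 of these genes in every strain. In the order N2, lin-41(xe11), combined mutant and let-7(n2853), 14, 2, 3 and 6 had an unadjusted p under 0.05 by edgeR. Over all genes 82, 3, 0 and 0 were called in place of 1944, 2025, 1476 and 2380. The hours left out and the smaller late group cannot be told apart here. Leaving out each hour gave 2 to 8, 2 to 4, 3 to 4 and 3 to 5 calls in place of 9, 4, 4 and 6. DESeq2 called 21 in N2, 13 in let-7(n2853) and 8 in lin-41(xe11), all higher. Wider windows called 7 in lin-41(xe11), among them sdha-1 and cox-18 lower. Early, the combined mutant differed from N2 in 3 genes by DESeq2 and in 1 (ucr-11) with wider windows. For calls by DESeq2 and with wider windows the share of all genes called is not given here, so nothing is read from these counts. For let-7(n2853) against N2, early to late, DESeq2 called 2 genes, and the log2 table (limma), the shorter late window and the fit with no hour term (edgeR) called 0, with 9, 6 and 8 at an unadjusted p under 0.05; leaving out each hour gave 0 to 1. The rhythm call in let-7(n2853) went to 0 with a 7 h period and with library totals. The ratio of ant-1.4 to ant-1.3 passed the threshold with 0.1 CPM added in lin-41(xe11) (−1.72) and the combined mutant (−1.18); in let-7(n2853) it missed it without 34 and 36 h (−0.94). Leaving out each hour, it lay at −0.51 to −0.27 in lin-41(xe11), −1.42 to −0.94 for let-7(n2853). The cause of these shifts was not tested. The joint fits paired libraries of different strains by hour through the hour term. Depth limits ant-1.2, ant-1.3, ant-1.4 and cyc-2.2 in the early window, where libraries hold few counts of them.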

Other observations

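The level difference between the let-7(n2853) course and N2 ran with coding length. Over 18 to 36 h, the mean level in let-7(n2853) was above that in N2 for 17 of 18 of these genes with fewer than 200 codons (median log2 difference 0.38) and for 5 of 22 with 200 or more (median −0.14). Among all genes the numbers were 1656 of 2477 (median 0.17) and 4600 of 10297 (median −0.05). The small subunits cox-5B and cox-6B stood at 0.63 and 0.58, and the long genes sdha-1 and nuo-5 at −0.30 and 0.06. These are values without a test, and the strain, the course and the purification cannot be told apart in them.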
